A study of Mus musculus with 2 samples.

Results

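Cells with high Irf8 and detectable Flt3 were examined in 2 single-cell RNA libraries of mouse bone marrow. The cells were chosen by measured values, through a rule on counts of unique molecular identifiers (UMIs, one per captured RNA molecule). A kept barcode had at least 1000 genes and under 10% of its UMIs from mitochondrial genes. An Irf8-high Flt3 cell had an Irf8 share of UMIs at or above the 85th percentile of kept control barcodes (0.0658%), at least 1 Flt3 UMI and at most 2 Dntt UMIs. Its summed share of 5 monocyte genes (F13a1, Ly86, Ms4a6c, Csf1r and Ccr2) lay below the 75th percentile of kept control barcodes (0.0655%). Its summed share of 4 class II genes (Cd74, H2-Aa, H2-Ab1 and H2-Eb1) was under 0.2%. The rule found 151 of 14083 kept barcodes, 58 of 8003 in the control and 93 of 6080 in the knockout library.

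Both libraries were made from Lineage-, cKit+ marrow cells of C57BL/6 mice, which had been frozen and thawed. Control mice were Trsp f/f. Knockout mice were Trsp f/f:Mx1-Cre, with Cre recombinase under the interferon-inducible Mx1 promoter. Trsp encodes the tRNA for selenocysteine, the amino acid that selenoproteins carry. Both genotypes were given 500 µg pI-pC, which mimics viral RNA and so switches on interferon and Mx1-Cre, 3 times on alternate days. The record gives times of 7 weeks after birth and 9 weeks after the last dose. Mx1-Cre acts in interferon-responding cells in general and not in one blood lineage. How many mice each library pools is not stated in the labels. With 1 library per genotype there was no replicate and no test, and every interval below is a 95% interval that covers counting error only.

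Irf8 is a transcription factor that directs progenitors away from neutrophils and toward monocytes and dendritic cells. Flt3 is the receptor for the cytokine FLT3 ligand, on which dendritic cell production depends. Progenitors with both genes can give conventional dendritic cells, plasmacytoid dendritic cells, which make type I interferon, and monocytes, and the balance between Irf8, Tcf4, Klf4 and Cebpa accompanies that choice.

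The control library held 14372 barcodes and 184683653 UMIs, and the knockout library 11556 barcodes and 152092210 UMIs. The kept barcodes had a median of 20634 UMIs in the control and 22444 in the knockout library, with median mitochondrial shares of 3.79% and 4.52%. The Irf8-high Flt3 cells had a median of 19086.5 UMIs (range 4224 to 39528) in the control and 24095 (range 1870 to 45562) in the knockout library, so they were read more deeply in the knockout. Their median mitochondrial shares were 3.67% and 4.54%. Of all deposited barcodes 39 sequences occurred in both libraries and 11 were kept in both, and none of these was an Irf8-high Flt3 cell. Scrublet, a doublet caller, placed 2 control and 0 knockout members of the population over its threshold.

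The Irf8-high Flt3 cells made up 0.725% of kept control barcodes (exact binomial interval 0.551 to 0.936%) and 1.53% of kept knockout barcodes (1.24 to 1.87%). The knockout share was 2.11 times the control share (interval 1.52 to 2.92, normal on the log scale). The rule reads Irf8, Flt3 and the other genes named above, so this ratio is a description of how many barcodes met it. Since the depths differed, the share was also taken after thinning to 5000 UMIs the kept barcodes with at least that many. This left out 93 control and 502 knockout barcodes. The Irf8 and monocyte cuts were taken again from the thinned control barcodes, and the Flt3 and Dntt limits stayed as they were. The shares were then 1.07% in the control and 1.90% in the knockout library, of partly different barcodes under different cuts. The log2 ratio of shares was 1.08 as counted, with an interval from 0.61 to 1.55, and 0.82 after thinning.

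The cut on Irf8 ran through a continuous range of values. The lowest Irf8 share inside it was 0.0658% in the control and 0.0661% in the knockout library, and the highest share just outside it was 0.0655% and 0.0656%. Within 10% above the cut lay 12 control and 11 knockout cells. The highest monocyte gene share inside the rule was 0.0654% in the control and 0.0649% in the knockout library, against 0.0660% and 0.0657% for the nearest barcodes outside. The class II clause had a wide empty margin, with at most 0.0206% and 0.0838% inside and at least 0.456% and 0.825% in the barcodes that broke only that clause.

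**Figure D1:**
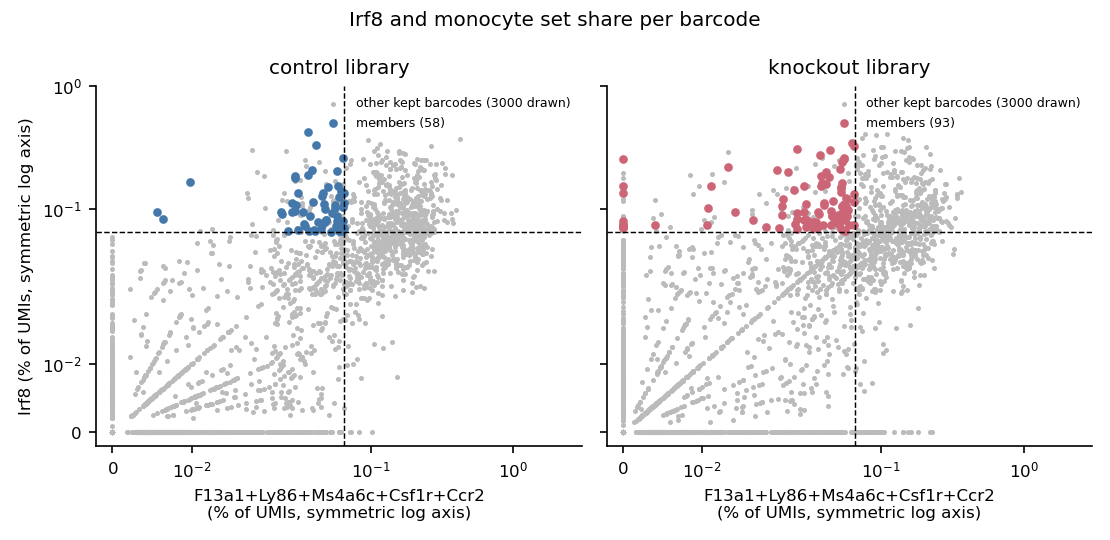
Each point is 1 kept barcode, with the share of UMIs from the 5 monocyte genes on the horizontal axis and from Irf8 on the vertical axis, both as percent on symmetric log axes, and dashed lines at the cuts of 0.0655% and 0.0658%. The 58 control and 93 knockout members (colored) lie directly beside a larger cloud with more monocyte gene UMIs, and grey points in the same quadrant broke another clause. Only some of the other kept barcodes are drawn.

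The population was compared with 5 sets of neighbours, each made of kept barcodes that broke exactly 1 clause. Those with a lower Irf8 share numbered 1505 in the control and 1304 in the knockout library, and those with a higher monocyte gene share 474 and 298. Barcodes with at least 3 Dntt UMIs, a lymphoid gene, numbered 87 and 70. The sets without a Flt3 UMI (13 and 51) and with more class II UMIs (18 and 12) were small. The 51 knockout barcodes without a Flt3 UMI had a median of only 3500 UMIs.

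The label of this population names a monocyte and dendritic progenitor with Irf8, Flt3, Ccnd1 and Mpeg1 as markers. Levels are given as CPM, the count of a gene scaled to a fixed total of UMIs (1e6), which 3′ counting makes comparable for 1 gene between sets of cells. Irf8 (gene ENSMUSG00000041515, chromosome 8, 120736358 to 120756694, mm10) stood at 1103 CPM in the control cells and 1229 CPM in the knockout cells. Flt3 (ENSMUSG00000042817, chromosome 5, 147330741 to 147400489) stood at 184 and 227 CPM. Both genes chose the cells.

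Ccnd1 and Mpeg1 were not used by the rule. Ccnd1 (ENSMUSG00000070348, chromosome 7, 144929931 to 144939925), which encodes cyclin D1, a cyclin that drives entry into the cell cycle, was at 100.4 CPM in the control and 177 CPM in the knockout cells. In the Irf8-lower neighbours it was at 42.9 and 55.9 CPM, a log2 difference of 1.23 in the control and 1.66 in the knockout library. Mpeg1 (ENSMUSG00000046805, chromosome 19, 12460779 to 12465283), a pore-forming protein of phagocytes, was at 110 and 181 CPM against 7.31 and 21.2 CPM in those neighbours. Its log2 differences of 3.91 and 3.09 made it one of the genes farthest above the Irf8-lower neighbours. In the monocyte-high neighbours Mpeg1 was at 142 and 193 CPM and Ccnd1 at 94.8 and 117 CPM. Mpeg1 was thus not higher than in the barcodes with more monocyte UMIs, and Ccnd1 was close to them in the control. In the Dntt-high neighbours Mpeg1 was at 190 and 233 CPM and Ccnd1 at 84.6 and 107 CPM. Over the 4 label markers, Irf8 and Flt3 included, the median log2 difference from the Dntt-high neighbours was -0.46 in the control and -0.13 in the knockout library.

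A gene was called measured when it reached 20 CPM in 1 of the sets compared and 50 UMIs over both, and different when it was at least 1.5-fold apart. A gene below 20 CPM in 1 set could therefore be called different only if it was higher in the other set. Of 6091 genes measured against the Irf8-lower neighbours, 173 (2.84%) were higher and 253 (4.15%) lower in the Irf8-high Flt3 cells of both libraries. Against all other kept barcodes 170 (2.85%) of 5956 genes were higher and 243 (4.08%) lower in both. Against the monocyte-high neighbours the counts were 86 higher (1.45%) and 144 lower (2.43%), and against the Dntt-high neighbours 80 higher (1.37%) and 111 lower (1.9%).

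Genes known from plasmacytoid dendritic cells led the ranking against all other kept barcodes. Siglech (ENSMUSG00000051504, chromosome 7, 55768178 to 55778925), a surface lectin of plasmacytoid dendritic cells, was at 29.2 CPM in the control and 40.8 CPM in the knockout cells. In the Irf8-lower neighbours it had 0 UMIs in the control and was at 0.108 CPM in the knockout library. Cox6a2, a muscle-type cytochrome oxidase subunit also known from plasmacytoid dendritic cells, was at 68.7 and 47.8 CPM against 3.76 and 2.73 CPM in the Irf8-lower neighbours.

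Ly6d, a surface protein of lymphoid and plasmacytoid progenitors, was at 47.2 CPM in the control and 69.1 CPM in the knockout cells, but 1 control barcode held 43 of the 55 control UMIs (78.2%). Atp1b1, a sodium pump subunit, was at 27.5 and 35.2 CPM against 4.06 and 4.13 CPM in the Irf8-lower neighbours, with 43.8% of the control UMIs in 1 barcode. More cells carried the transcription factor Runx2, at 155 and 210 CPM with UMIs in 47 control and 72 knockout cells, and the survival gene Bcl2, at 342 and 356 CPM with UMIs in 55 and 87 cells.

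The other genes ranked highest over all other kept barcodes were Gm34680, Kcng1, Ppfia4, Cnn3, Tpm4, the transcription factor Mef2c and Tmem229b, besides Ccnd1 and Mpeg1. Tcf4, the factor on which plasmacytoid dendritic cells depend, was at 221 and 267 CPM against 126 and 141 CPM in the Irf8-lower neighbours, a log2 difference of 0.81 and 0.92. Of the 16 plasmacytoid genes listed, 7 were measured against the Irf8-lower neighbours in both libraries. Of these, 5 were higher in both and none lower, with a median log2 difference of 1.03 in the control and 1.23 in the knockout library, where all 6091 measured genes had medians of -0.03 and -0.0039. The list summed to 923 CPM in the control and 970 CPM in the knockout cells, and to 495 and 491 CPM in the Irf8-lower neighbours. Against the Dntt-high neighbours the order was the other way: of 7 plasmacytoid genes measured none was higher in both libraries and 1 was lower, with medians of -0.51 and -0.41. Against the monocyte-high neighbours 6 of 8 were higher and none lower. Between knockout and control, 8 listed genes were measured in the Irf8-high Flt3 cells, 4 in the Irf8-lower and 5 in the monocyte-high neighbours. A gene that met the CPM floor only through the Irf8-high Flt3 cells could be called higher but not lower. The counts of higher plasmacytoid genes against these 2 sets may therefore lean toward higher.

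Several defining genes of conventional dendritic cells had few or no UMIs. Xcr1, the chemokine receptor that defines type 1 conventional dendritic cells, had 0 UMIs in both libraries, which allows up to 3 UMIs among the summed UMIs of each. Clec9a, a receptor for dead cells on the same cell type and its progenitors, had 6 UMIs in the control and 22 in the knockout cells (5.15 and 10.2 CPM), against 0.203 and 0.251 CPM in the Irf8-lower and 11.1 and 9.83 CPM in the monocyte-high neighbours. It was thus under the 20 CPM floor but above the Irf8-lower neighbours in both libraries. Batf3 had 2 UMIs and 1 UMI, and Zbtb46 had 1 UMI and 0 UMIs. Of the listed genes only Wdfy4 of the type 1 list (58.4 and 57.0 CPM) and Sirpa of the type 2 list (34.3 and 41.3 CPM) passed the floor, beside 54.9 and 58.0 CPM and 26.5 and 33.9 CPM in the Irf8-lower neighbours. The 10 listed type 1 genes summed to 73.8 and 76.5 CPM against 63.3 and 67.4 CPM in the Irf8-lower neighbours, and the 10 type 2 genes to 66.1 and 65.8 CPM against 71.4 and 83.9 CPM.

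Monocyte genes outside the rule were mixed. Cx3cr1, the fractalkine receptor of monocytes and their progenitors, was at 24.9 CPM in the control and 39.9 CPM in the knockout cells, above the 6.09 and 7.43 CPM of the Irf8-lower neighbours and below the 81.6 and 91.1 CPM of the monocyte-high ones. Ly6c2 was at 110 and 111 CPM, against 827 and 598 CPM in the monocyte-high neighbours. Csf1r, the receptor for macrophage colony-stimulating factor, was at 61.8 and 59.8 CPM, but it belongs to the set that the rule held low. It therefore gives no check of the monocyte side of the label, while plasmacytoid genes led the ranking. The cells are called Irf8-high Flt3 cells here, after their rule.

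Early and neutrophil genes were lower than in the Irf8-lower neighbours. All 8 neutrophil-list genes measured were lower in both libraries, with a median log2 difference of -2.54 in the control and -2.39 in the knockout library. Between knockout and control, 5 genes of this list were measured in the Irf8-high Flt3 cells and 11 in the Irf8-lower neighbours. A gene that met the CPM floor only through the neighbours could be called lower but not higher. The count of 8 may therefore lean toward lower. Elane, neutrophil elastase, was at 208 and 251 CPM against 1579 and 1260 CPM. Mpo, myeloperoxidase, was at 1716 and 1452 CPM against 3293 and 3077 CPM. Of 10 stem cell genes measured, 7 were lower in both and none higher. The same limit applies to this count, since between knockout and control 7 stem cell genes were measured in the Irf8-high Flt3 cells and 10 in the neighbours. The stem cell factor Hlf was at 24.04 and 11.1 CPM against 150 and 168 CPM, and Meis1 at 28.3 and 38.0 CPM against 105 and 118 CPM. Kit was at 76.4 and 64.4 CPM against 150 and 171 CPM, while Cd34, a surface marker of early progenitors, was at 409.5 and 327 CPM against 394 and 383 CPM. Against the Dntt-high neighbours all 5 neutrophil genes measured were higher in both libraries, with median log2 differences of 1.59 and 1.88. Against the monocyte-high ones all 5 were lower (medians -1.16 and -1.15). Of the stem cell genes, 3 of 6 were higher and none lower against the monocyte-high neighbours (medians 0.72 and 0.84). Against the Dntt-high ones none of 7 was higher and 1 was lower. The floor limits these counts too.

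The genes ranked lowest against the Irf8-lower neighbours were Cpa3, a mast cell protease, S100a8, a neutrophil calcium-binding protein, Sdsl, Dach1, Ms4a3 and Prg2, an eosinophil granule protein. Cpa3 was at 7.73 and 6.03 CPM against 114 and 72.3 CPM, and Prg2 at 12.02 and 9.74 CPM against 212 and 80.6 CPM. Besides Mpeg1, Ly6d, Cox6a2, Atp1b1, Gm34680, Ppfia4, Tpm4 and Cnn3, the highest included Pld4, a nucleic acid exonuclease of dendritic cells (36.1 and 41.3 CPM against 6.02 and 8.08 CPM), and Il6st, the shared receptor chain of the interleukin 6 family (89.3 and 80.7 CPM against 17.5 and 19.3 CPM). Against all other kept barcodes the lowest were Igkc, S100a8, Jchain, Prg2, Iglc1, S100a9, Prss34 and Ms4a2, which are genes of plasma cells, neutrophils, eosinophils and basophils. Immunoglobulin genes such as Igkc and Iglc1 have near-identical relatives that 3′ reads may not tell apart.

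**Figure D2:**
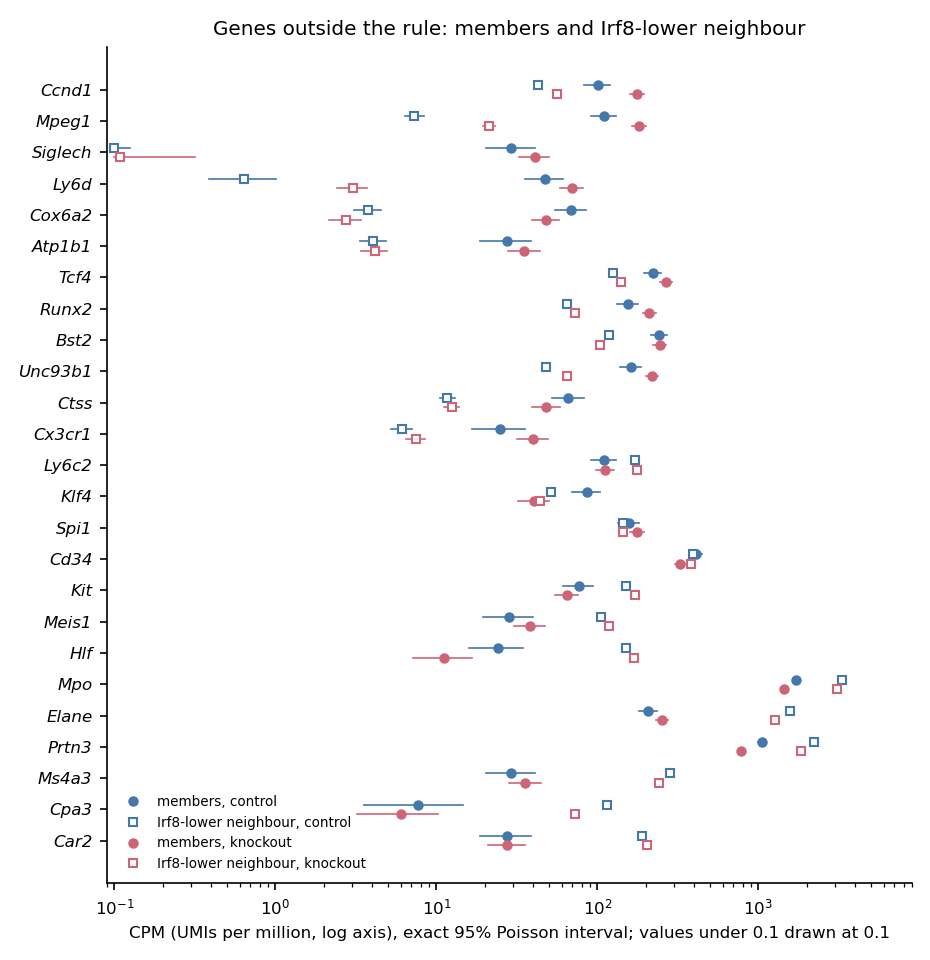
CPM on a log axis of genes outside the rule in the Irf8-high Flt3 cells (filled circles) and the Irf8-lower neighbours (open squares) of both libraries, with exact Poisson intervals of the summed UMIs and values under 0.1 CPM drawn at 0.1. Mpeg1, Siglech, Ly6d, Cox6a2 and Atp1b1 stand to the right of the neighbours in both libraries, and Hlf, Elane, Ms4a3 and Cpa3 to the left.

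Droplets also take up RNA from lysed cells, so shares of cells with a UMI were read beside a set of another lineage, chosen as a background. That set held the kept barcodes highest in basophil and mast cell genes, thinned like the others to 5000 UMIs, which left out 1 control and 8 knockout Irf8-high Flt3 cells. After thinning, Mpeg1 gave a UMI in 22 of 57 control cells (38.6%) and 46 of 85 knockout cells (54.1%). In the basophil set it did so in 1.27% and 1.12%, at median depths of 13278 and 15985 UMIs before thinning. The nearest neighbours were as high or higher, with 52.9% and 57.1% in the Dntt-high and 48.5% and 57.5% in the monocyte-high set after thinning. Without thinning the Mpeg1 shares were 67.2% and 76.3% in the Irf8-high Flt3 cells. Siglech gave a UMI in 10.5% of thinned control and 10.6% of thinned knockout cells (12.1% and 19.4% unthinned) and in 0 basophil-set barcodes of either library. In the control library the Siglech share was 9.20% in the Dntt-high set (16.1% unthinned) and 2.54% in the monocyte-high set (6.33% unthinned). The control Dntt-high set was thus close to the Irf8-high Flt3 cells after thinning and above them without it. Mpo gave a UMI in 93.0% and 89.4% of the thinned cells but also in 100% and 98.9% of the basophil set. In the thinned control Irf8-lower neighbours it did so in 88.1%. The basophil set thus gives no background level for Mpo, and the Mpo share is not read as expression. Cx3cr1 gave a UMI in 8.77% of the thinned control cells, 13.9% of the control basophil set and 2.28% of the thinned control Irf8-lower neighbours. The basophil set, above those neighbours, gives no background level for Cx3cr1 either, and the control share of Cx3cr1 is not read as expression.

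The population was not uniform along its Irf8 share. The control cells were divided into tertiles of that share, with cuts at 0.0807% and 0.112%, and the same cuts gave 19, 19 and 20 control cells and 30, 28 and 35 knockout cells. These are ranges of 1 value and not cell types. Runx2 was at 80.02, 102 and 280 CPM from the lower to the upper tertile in the control and at 84.9, 204 and 305 CPM in the knockout library. Mpeg1 was at 61.2, 90.3 and 179 CPM, and at 84.9, 148 and 277 CPM. Both genes were thus higher in each successive tertile of both libraries.

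Siglech was nearly restricted to the upper tertile, with 0, 5.83 and 80.6 CPM in the control and 0, 2.85 and 102 CPM in the knockout cells. Mpo, in contrast, was at 2615, 1911 and 585 CPM in the control and 2518, 1183 and 901 CPM in the knockout cells. Prtn3, proteinase 3 of neutrophil granules, was at 1615, 1014 and 469 CPM, and at 1326, 651 and 490 CPM. Cd34 was lowest in the upper tertile of both libraries, at 323 CPM in the control and 229 CPM in the knockout cells. Csf1r showed no such order, with 75.3, 46.6 and 60.5 CPM in the control and 53.9, 54.2 and 68.7 CPM in the knockout cells.

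**Figure D3:**
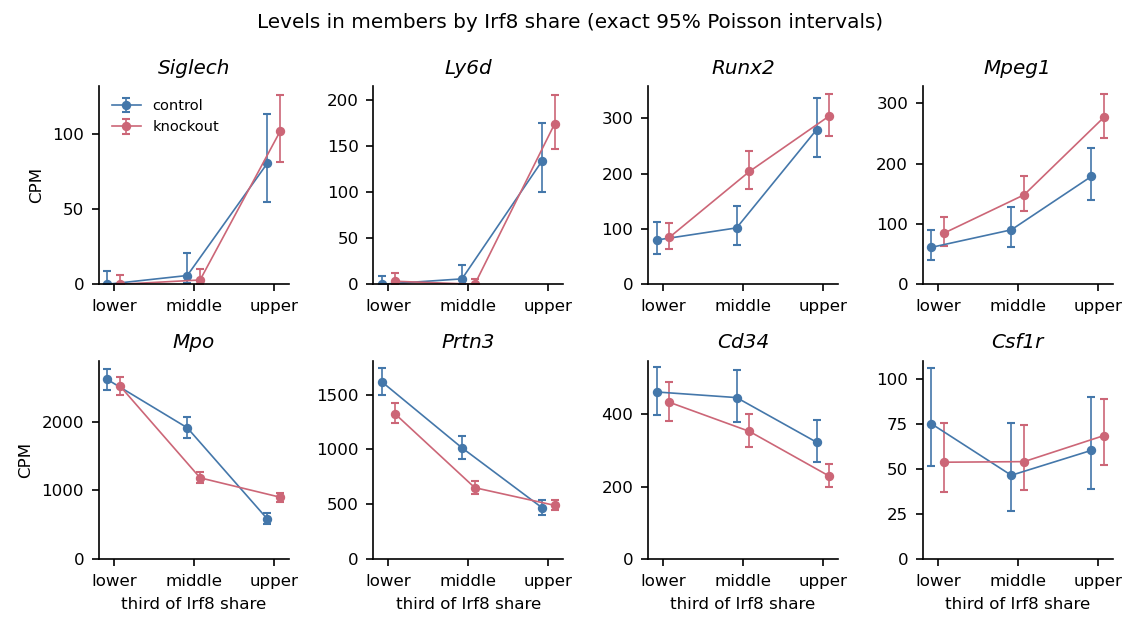
CPM of 8 genes in the lower, middle and upper tertile of Irf8 share among the Irf8-high Flt3 cells, control in blue and knockout in red, with exact Poisson intervals. Siglech reaches 80.6 and 102 CPM only in the upper tertile, while Mpo is at 585 and 901 CPM there against 2615 and 2518 CPM in the lower tertile.

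A Siglech UMI was found in 7 control cells (12.1%) and 18 knockout cells (19.4%). In these cells Irf8 was at 2000 CPM in the control and 1896 CPM in the knockout library, against 983 and 1029 CPM in the cells without one. Mpo was at 299 and 659 CPM with Siglech and at 1905 and 1689 CPM without. Spib, a transcription factor of plasmacytoid dendritic cells, had 4 control and 13 knockout UMIs, all in cells with a Siglech UMI. Ccnd1 was at 270 and 228 CPM with Siglech against 77.8 and 161 CPM without, and Mki67, a proliferation marker, at 628 and 607 CPM against 310 and 264 CPM. Other granule genes were lower with Siglech too, with Prtn3 at 153 and 441 CPM against 1166 and 880 CPM, Ctsg at 161 and 216 CPM against 878 and 573 CPM, and Elane at 43.8 and 92.7 CPM against 230 and 299 CPM. Per cell, Spearman's rho with Siglech was -0.45 in the control and -0.49 in the knockout cells for Mpo. It was -0.47 and -0.39 for Prtn3 and -0.35 and -0.44 for Ctsg. Elane was only weakly related to Siglech (rho -0.28 over 58 control and -0.13 over 93 knockout cells, which share depth and library). Csf1r was at 80.3 and 68.5 CPM with and at 59.3 and 57.2 CPM without Siglech.

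The knockout and control cells were then compared gene by gene. Of 6185 measured genes 374 (6.05%) were at least 1.5-fold higher and 182 (2.94%) at least 1.5-fold lower in the knockout cells, and the median log2 ratio was 0.05. In the far larger Irf8-lower set 62 (0.998%) of 6215 genes were higher and 36 (0.579%) lower, and in the monocyte-high set 105 (1.72%) of 6112 higher and 32 (0.524%) lower. In the Dntt-high set, which was about as small as the Irf8-high Flt3 cells, 351 (5.63%) were higher and 165 (2.65%) lower. The sets differ in their number of UMIs, so a list's count in one set is not compared with its count in another. Counts of the members of each list below are read against 6.05% and 2.94%.

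Selenoprotein RNAs were among the genes lowest in the knockout cells. Selenoh, a nuclear selenoprotein, had 287 CPM in the control and 29.2 CPM in the knockout cells, a log2 ratio of -3.30 (-3.71 to -2.90). Selenow, a small redox protein, had 113 and 12.5 CPM (log2 ratio -3.18). Gpx1, the cytosolic glutathione peroxidase that removes hydrogen peroxide, had 1248 and 220 CPM (log2 ratio -2.50, interval -2.66 to -2.35). Gpx4, which reduces lipid peroxides and restrains ferroptosis, had 337 and 101 CPM (log2 ratio -1.74), and Selenop, the selenium carrier, 41.2 and 8.81 CPM (log2 ratio -2.23).

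Of 24 selenoprotein genes 13 were measured, and 8 were at least 1.5-fold lower and none higher, with a median log2 ratio of -0.60. The medians were -0.64 in the Irf8-lower, -0.61 in the Dntt-high and -0.69 in the monocyte-high neighbours. Selenot (-0.74), Selenok (-0.60) and Msrb1 (-0.59) completed the 8, while Selenof (-0.46), Sephs2 (-0.50) and Selenos (-0.18) were lower by less, and the Sephs2 ratio was 0.72 after thinning before the rule. Txnrd1, the cytosolic thioredoxin reductase, was the only one with a ratio above 0, at 81.5 CPM in the control and 108 CPM in the knockout cells (log2 ratio 0.41, interval 0.06 to 0.77). In the Irf8-lower neighbours its ratio was -0.04. Secisbp2, which binds the selenocysteine insertion element, was at 24.04 and 46.8 CPM (log2 ratio 0.96), against -0.02 in the Irf8-lower neighbours.

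Targets of NRF2, the transcription factor that answers oxidative and electrophile stress, were higher in the knockout cells. Of 22 targets, among them the selenoprotein Txnrd1, 15 were measured, all 15 had a ratio above 0, and 7 were at least 1.5-fold higher and none lower, with a median log2 ratio of 0.53. Gclm, the modifier subunit of glutamate-cysteine ligase, which makes the precursor of glutathione, was at 46.4 CPM in the control and 97.8 CPM in the knockout cells (log2 ratio 1.08, interval 0.64 to 1.54). Its catalytic partner Gclc was at 43.8 and 69.1 CPM. Cat, catalase, was at 30.0 and 69.5 CPM (log2 ratio 1.21), and Gsr, glutathione reductase, at 39.5 and 69.1 CPM (0.81).

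The iron store subunit Ftl1 was at 366 and 888 CPM (log2 ratio 1.28), though its near-identical pseudogene copy Ftl1-ps1, at 379 and 870 CPM, makes the split between the 2 uncertain. Prdx1, a peroxiredoxin, was at 420 and 607 CPM (0.53) and Fth1, the other ferritin subunit, at 1800 and 2547 CPM (0.50). Taldo1 of the pentose phosphate pathway was the lowest of the list, at 287 and 289 CPM. The median was 0.52 in the Irf8-lower neighbours, 0.24 in the Dntt-high and 0.87 in the monocyte-high ones. Ratios above 0 were not particular to the Irf8-high Flt3 cells. All 17 targets measured in the monocyte-high neighbours had one, as did 12 of 14 in the Dntt-high ones. In the Irf8-lower neighbours 15 of 16 did, with Txnrd1 the exception. Gclm had a log2 ratio of 1.71 and Fth1 of 0.87 in the monocyte-high neighbours, and the interval of each lay above that of the Irf8-high Flt3 cells.

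**Figure D4:**
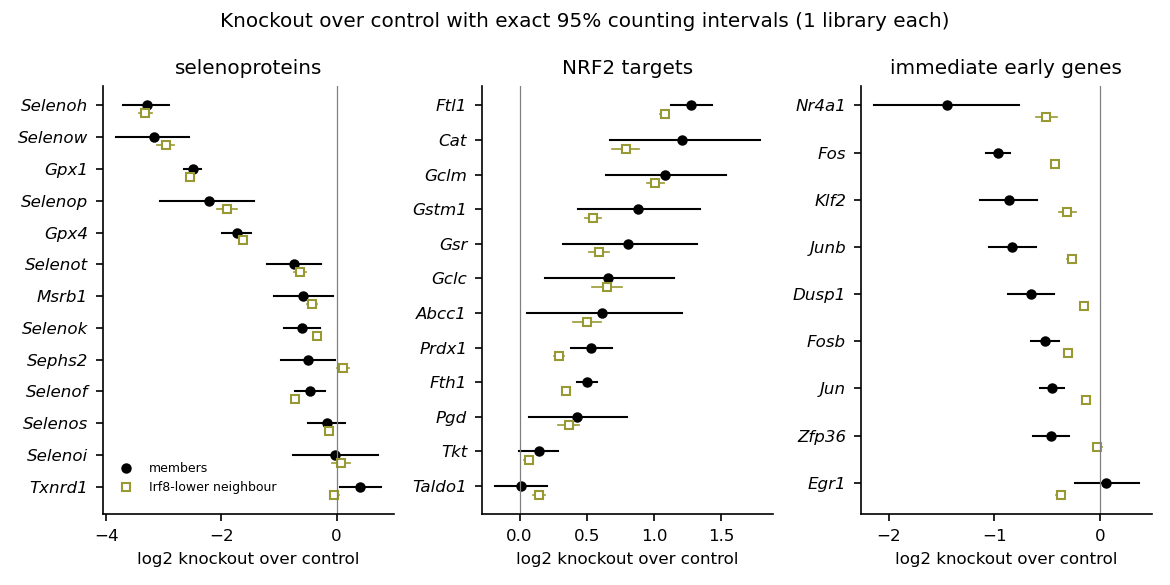
Log2 ratio of knockout over control CPM with exact counting intervals for measured selenoprotein genes, 12 of the 15 measured NRF2 targets and 9 of the 15 immediate early genes, in the Irf8-high Flt3 cells (black circles) and the Irf8-lower neighbours (open squares). Selenoh is at -3.30 in the Irf8-high Flt3 cells and -3.32 in the neighbours, Sephs2 at -0.50 and 0.10 and Txnrd1 at 0.41 and -0.04, while Fos, Klf2, Junb, Dusp1 and Nr4a1 lie below them.

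NRF2 binds antioxidant response elements, and 3 of its measured targets whose windows hold a match to the core letters are shown so that the match can be seen in its context. Of these, Gclm was at least 1.5-fold higher in the knockout cells, and Prdx1 and Txnrd1 were not. The sequences are the 250 bases before the RefSeq transcript start (GRCm38.p6), printed 5′ to 3′ on the gene's strand, with the match to TGACNNNGC in capitals, which in all 3 lies on the opposite strand.
Gclm, chr3:122245307-122245556, plus strand: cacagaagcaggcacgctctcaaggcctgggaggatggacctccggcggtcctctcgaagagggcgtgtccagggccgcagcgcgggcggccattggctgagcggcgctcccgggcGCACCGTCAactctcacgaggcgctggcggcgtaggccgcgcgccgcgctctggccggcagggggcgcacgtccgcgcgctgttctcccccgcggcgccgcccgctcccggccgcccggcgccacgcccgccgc
Prdx1, chr4:116685349-116685598, plus strand: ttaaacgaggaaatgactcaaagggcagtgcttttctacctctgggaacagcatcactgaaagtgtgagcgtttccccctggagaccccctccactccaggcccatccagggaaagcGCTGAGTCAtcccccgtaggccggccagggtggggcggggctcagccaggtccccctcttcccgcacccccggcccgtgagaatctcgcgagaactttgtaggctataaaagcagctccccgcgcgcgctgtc
Txnrd1, chr10:82858956-82859205, plus strand: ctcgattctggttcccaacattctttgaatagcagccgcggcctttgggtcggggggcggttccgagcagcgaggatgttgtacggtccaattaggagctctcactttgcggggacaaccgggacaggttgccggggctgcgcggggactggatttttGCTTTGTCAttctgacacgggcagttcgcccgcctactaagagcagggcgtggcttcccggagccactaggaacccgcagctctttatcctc

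Searched on both strands over 300 bases (250 before and 50 after the start), TGACNNNGC occurred in 12.4% of 32817 windows. Of the 18 NRF2 targets that had a window, 9 had a match in at least 1. Some genes have several windows, so this count of genes is not comparable with the share of windows. Txnrd1 had 3 windows, of which 1 held a match. The matched genes were Srxn1, Gclm, Txnrd1, G6pdx, Pgd, Pir, Me1, Mgst1 and Prdx1, of which 5 were measured in the Irf8-high Flt3 cells. A match here describes letters and is not a binding site.

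Immediate early genes, which are switched on within minutes of a stimulus, were lower in the knockout cells. All 15 were measured, 14 had a ratio below 0, 5 were at least 1.5-fold lower and none was higher, with a median log2 ratio of -0.51. Fos, a subunit of the AP-1 transcription factor, was at 1090 CPM in the control and 560 CPM in the knockout cells (log2 ratio -0.96, interval -1.08 to -0.85). Its partner Junb was at 286 and 161 CPM (-0.83), the transcription factor Klf2 at 200 and 110 CPM (-0.86), Nr4a1 at 40.3 and 14.8 CPM (-1.44) and the phosphatase Dusp1 at 275 and 175 CPM (-0.65). Egr1, in contrast, was at 119 and 125 CPM.

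The list median was nearer 0 in other cells of the same 2 libraries. It was -0.15 in both the Irf8-lower and the monocyte-high neighbours and -0.04 in the Dntt-high ones. The log2 ratio of Fos was 0.53 lower than in the Irf8-lower neighbours (difference -0.53, interval -0.65 to -0.42). The Junb difference was -0.56 (-0.78 to -0.34). With the Irf8 cut at the 80th percentile the list median was -0.25.

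Few cell cycle genes were 1.5-fold apart. All 20 S phase genes were measured, 18 had a ratio above 0 and 2 were at least 1.5-fold higher, with a median log2 ratio of 0.31 against -0.01 in the Irf8-lower, -0.04 in the Dntt-high and 0.12 in the monocyte-high neighbours. The ribonucleotide reductase subunits Rrm1 (158 and 238 CPM, log2 ratio 0.59) and Rrm2 (64.4 and 97.4 CPM, 0.60) were the 2. The replicative helicase subunit Mcm6 was at 217 and 300 CPM (0.46), but Mcm7 was at 279 and 222 CPM (-0.33), and in the Irf8-lower neighbours its ratio was -0.58. E2f1, which activates S phase genes, was at 42.1 and 67.7 CPM (0.69).

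The 20 genes of G2 and M phase had a median of -0.04, with Ube2c alone at least 1.5-fold lower (138 and 73.7 CPM), though its log2 ratio was 0.63 with the Irf8 cut at the 90th percentile and 0.07 after thinning. In these cells Mki67 was at 348 and 343 CPM. Of the D cyclins, only Ccnd1 was 1.5-fold apart, with a log2 ratio of 0.81 (0.51 to 1.13), while Ccnd2 was at 298 and 307 CPM and Ccnd3 at 126 and 123 CPM. The Ccnd1 ratio was 0.38 in the Irf8-lower neighbours, a difference of 0.43 (0.11 to 0.75). After thinning before the rule, it was 0.09.

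Among genes of cell fate, Klf4, a transcription factor of monocyte differentiation, was at 85.8 CPM in the control and 40.3 CPM in the knockout cells (log2 ratio -1.09, interval -1.52 to -0.66). Cebpa, which drives granulocyte and monocyte fate, was at 67.0 and 42.2 CPM (-0.67). Both values moved by over 1.5 times with the cells taken: thinning before the rule gave -0.32 for Klf4 and -0.10 for Cebpa, and the 80th percentile for Irf8 gave -0.27 for Klf4. Runx2 had a log2 ratio of 0.44 and Tcf4 of 0.27, below 1.5-fold. Spi1, the ETS factor that partners IRF8, was at 156 and 176 CPM. Of 23 fate regulators listed, 13 were measured, 3 were at least 1.5-fold lower (Klf4, Cebpa and Nfil3) and none higher, with a median of 0.09.

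The label marker Mpeg1 had a log2 ratio of 0.72 (0.43 to 1.02), against 1.54 in the Irf8-lower and 0.44 in the monocyte-high neighbours. Siglech had a ratio of 0.48 with an interval that held 0, Cox6a2 a ratio of -0.52, and Ly6d a ratio of 0.55 that was 2.06 without the barcode richest in it in each library. Of the 8 measured plasmacytoid genes 1 was 1.5-fold higher, which is Lair1, an inhibitory receptor (19.7 and 33.8 CPM).

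Cx3cr1 had a ratio of 0.68 (0.06 to 1.34) and Lyz2, lysozyme, a ratio of -0.70. Granule genes were lower for Ctsg, cathepsin G (794 and 491 CPM, -0.69), Prtn3 (-0.43) and Mpo (-0.24) but higher for Elane (0.27, 0.05 to 0.50). One barcode held 38.0% of the control and 31.5% of the knockout Elane UMIs, and the Elane ratio was -0.33 under 5% mitochondrial UMIs and -0.10 with the Irf8 cut at the 80th percentile. When barcodes were thinned before the rule the ratios of Mpo, Prtn3 and Lyz2 were above 0, at 0.28, 0.33 and 0.33.

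Of 17 measured cytokine and chemokine receptors 2 were higher and 2 lower, with a median of 0.17. Cxcr4, the receptor that holds progenitors in the marrow, was at 69.5 CPM in the control and 130 CPM in the knockout cells (log2 ratio 0.90), against a ratio of 0.49 in the Irf8-lower neighbours. Cx3cr1 was the other higher one, though its share of thinned control cells with a UMI was below that of the basophil set. That share was above the one in the Irf8-lower neighbours. Ccr2, a gene of the rule, and Csf2rb, a shared receptor chain, were the lower ones. Ifnar2, a chain of the type I interferon receptor, was at 125 and 167 CPM. Bst2, a membrane protein induced by interferon, was at 242 and 243 CPM (log2 ratio 0.01). Unc93b1, which carries nucleic acid sensing Toll-like receptors to endosomes, was at 161 and 218 CPM, while Tlr7 had 6 and 5 UMIs and Tlr9 none.

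Several other genes were far apart in the knockout. Histone genes among those ranked highest were Hist1h2ap at 58.4 and 516 CPM, Hist1h2ae at 64.4 and 275 CPM, and Hist1h4h at 4 UMIs in the control and 67 in the knockout. Hist2h2aa1 and Hist1h2bj were higher as well, but Hist1h2bc was lower, at 117 and 60.7 CPM (log2 ratio -0.94), and histone genes were not counted as a group. Histone genes resemble each other closely, and their transcripts mostly lack the poly(A) tail that 3′ libraries capture. Gm10076 (66.1 and 399 CPM), the ribosomal gene Rpl35 (586 and 1548 CPM), Eno1, an enzyme of glycolysis (19.7 and 68.2 CPM), and Ahsa1, a cofactor of HSP90 (31.8 and 97.4 CPM), were higher too. In the Irf8-lower neighbours some of these ratios were close: Hist1h2ap had a log2 ratio of 3.14 here and 3.20 there, Rpl35 of 1.40 and 1.45, and Eno1 of 1.79 and 1.53. Hist1h4h had 3.18 here and 1.44 there. Gm10076 and Rpl35 have near-identical copies in the genome, so their values are uncertain.

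Tmem119, better known as a marker of microglia, was at 13.7 CPM in the control and 45.0 CPM in the knockout cells, a log2 ratio of 1.71 (0.94 to 2.57), with UMIs in 11 of 58 and 43 of 93 cells. In the Irf8-lower neighbours it was at 3.11 and 3.09 CPM, and in the monocyte-high ones at 19.3 and 19.8 CPM. Tfrc, the transferrin receptor, was at 69.5 and 119 CPM (0.77), with ratios of 0.03 and 0.01 in those 2 neighbours.

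Lower in the knockout besides the selenoproteins were Ifitm1, an interferon-inducible membrane protein (135 and 42.2 CPM, log2 ratio -1.68), Olfr1369-ps1, Wdr89, Rnaset2b, Ctla2a, an early progenitor gene (74.7 and 29.7 CPM), and Phpt1. Olfr1369-ps1 had UMIs in only 6 control and 4 knockout cells. Wdr89, Rnaset2b and Phpt1 had ratios of -1.45, -1.61 and -1.37, beside -1.28, -1.43 and -1.38 in the Irf8-lower neighbours.

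The knockout ratio was also set against that of the neighbours, gene by gene, as a difference with its counting interval. Over 5835 genes measured in both, the median difference from the Irf8-lower neighbours was 0.03. The ratio was more positive in the Irf8-high Flt3 cells for Cd81, a tetraspanin (1.14 against -0.07, difference 1.21, interval 0.68 to 1.73), Smurf2, Marcks, Plrg1, Akap10 and Serpinf1, whose differences ran from 0.97 to 1.45. It was more negative for Igkc, Ighm, Ifitm1, Ctla2a, Olfr1369-ps1 and Hlf. Ifitm1 differed by -1.08 (-1.45 to -0.70) and Hlf by -1.27.

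For Igkc (difference -2.28) the libraries differed in the neighbours. There Igkc was at 167 CPM in the control and 794 CPM in the knockout library, while the Irf8-high Flt3 cells had 48.9 and 47.8 CPM. Jchain, a plasma cell gene, was at 22.4 and 90.9 CPM in the neighbours and at 2.58 and 4.17 CPM in the Irf8-high Flt3 cells. The part of plasma cell RNA in the neighbours' values was not tested.

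Against the monocyte-high neighbours the ratio was more positive for Cd81 (difference 1.30), Hist1h4h, Hspa1b, Zdhhc6, Pnpt1 and Elk4, and more negative for Ifitm1 (difference -1.49, interval -1.88 to -1.09), Igkc, 2410004B18Rik, Fos (-0.61), Hist1h2bc and Srebf1. Cd81 and Ifitm1 thus differed from both neighbours in the same direction. After thinning before the rule the Cd81 ratio was -0.13.

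**Figure D5:**
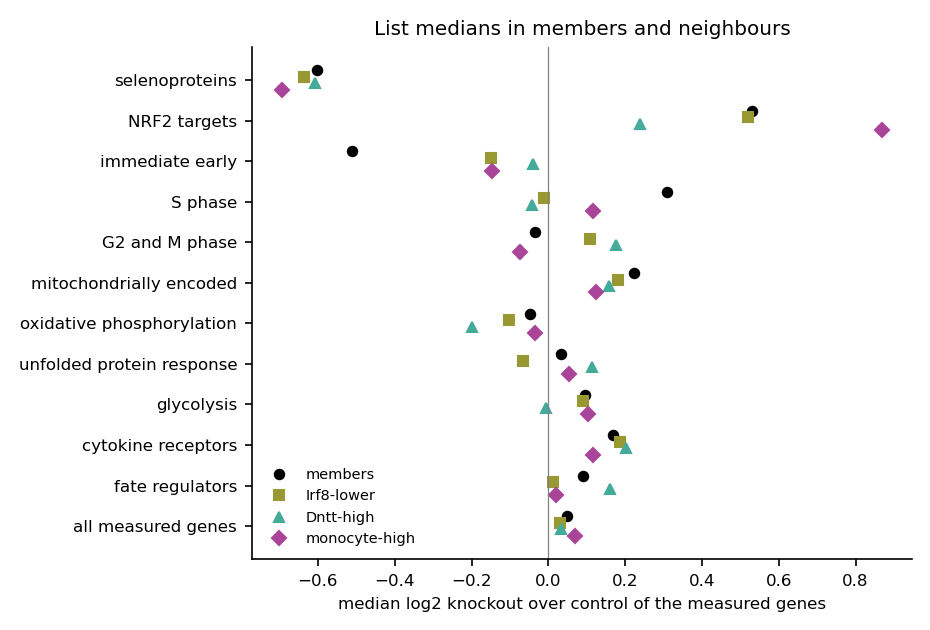
Median log2 ratio of knockout over control CPM over the measured genes of 11 lists and over all measured genes, in the Irf8-high Flt3 cells and 3 sets of neighbours from the same libraries. The selenoprotein medians lie between -0.60 and -0.69 in all 4 sets, while the immediate early median is -0.51 in the Irf8-high Flt3 cells and between -0.15 and -0.04 in the neighbours.

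The remaining lists were mixed. The 20 nuclear genes of oxidative phosphorylation had a median log2 ratio of -0.05 with none 1.5-fold apart. The 13 mitochondrially encoded genes had a median of 0.22, of which mt-Nd3 was 1.5-fold higher, beside the higher mitochondrial share of the knockout library as a whole. The 14 genes of the unfolded protein response had a median of 0.03 with only Dnajb9 1.5-fold lower (39.5 and 22.7 CPM). Of the arrestin list 2 of 5 genes were measured and both were higher, Txnip and Arrdc1 (27.5 and 42.2 CPM), with a median of 0.65. Of 13 measured glycolysis genes 3 were higher and none lower, with a median of 0.10. Txnip, which binds thioredoxin, was at 58.4 and 93.2 CPM (0.67), and at 0.86 in the Irf8-lower and 1.32 in the monocyte-high neighbours. Among 8 measured regulators of NRF2, Mafg (30.9 and 52.9 CPM) and Keap1, its inhibitor (48.1 and 72.8 CPM), were 1.5-fold higher, and Nfe2l2, which encodes NRF2, was at 54.9 and 48.2 CPM.

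Marker sums of other cell types were compared with the Irf8-lower neighbours. The 6 megakaryocyte genes summed to 15.5 CPM in the control and 3.25 CPM in the knockout cells, against 83.2 and 52.0 CPM in the neighbours. The 5 eosinophil genes summed to 15.5 and 11.1 CPM against 241 and 92.1 CPM, and the 7 basophil and mast cell genes to 51.5 and 33.8 CPM against 323 and 235 CPM. The 9 T, NK and innate lymphoid genes summed to 71.2 and 53.8 CPM against 218 and 164 CPM, with 6 of the 9 at 0 UMIs in each library. The 9 erythroid genes summed to 111 and 156 CPM against 338 and 289 CPM, the 6 mature B and plasma cell genes to 66.1 and 67.7 CPM against 95.2 and 161 CPM, and the 15 other monocyte genes to 403 and 348 CPM against 473 and 465 CPM. The lymphoid list of 13 genes was higher, with 290 and 336 CPM against 147 and 164 CPM, and 2 of its 3 measured genes were 1.5-fold higher in both libraries. It was at 196 and 201 CPM in the monocyte-high and 556 and 712 CPM in the Dntt-high neighbours. Against the Dntt-high ones 4 of 5 measured lymphoid genes were lower in both libraries and none higher. A list of 7 class II pathway genes outside the rule was higher too, at 311 and 291 CPM against 194 and 183 CPM. It was at 357 and 293 CPM in the monocyte-high and 344 and 321 CPM in the Dntt-high neighbours. The 13 neutrophil genes summed to 3815 and 3030 CPM against 9173 and 7979 CPM, with 3 of them at 0 UMIs in the control and 2 in the knockout cells. The neutrophil sum was higher in the control and the erythroid and lymphoid sums in the knockout cells, and their part in the knockout ratios was not tested.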

How the data were processed

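The authors deposited UMI counts per gene and barcode for 32285 genes, made with Cell Ranger 6.1.2, per the file headers, and mm10, per the submitters' processing notes, from 10x Chromium 3′ v3.1 libraries, per the labels' protocols. The labels state no settings for cell calling or strand. No deposited barcode had fewer than 500 UMIs.

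Counts were summed over the cells of a set and divided by their total to give CPM (numpy 2.4.6, scipy 1.17.1). Sums have exact Poisson, shares exact Clopper-Pearson, and ratios exact conditional binomial intervals at 95%, and differences of log2 ratios normal ones. UMIs remove PCR copies, and intervals and floors cover counting error only. No p-value was computed, since each genotype had 1 library. Doublets were scored with Scrublet (scanpy 1.11.5, expected rate 10%) and removed only in an alternative. Its automatic threshold marked 1.78% of scored control and 0.775% of scored knockout barcodes, and the control threshold, 0.433, was used for both. The functions were tested on simulated data.

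Members and lists were chosen with earlier results of these data known. Named genes followed a rule: up to 12 higher and 12 lower in the knockout, 15 higher and 8 lower against all other barcodes, 10 and 6 against the Irf8-lower neighbours, and 6 each way for differences of ratios, ranked by the interval bound nearest 0, plus the markers, each list's extremes and genes whose role the text needs. Tmem119 and Tfrc were compared with neighbours after their values were seen. Mx1, Mx2 and Trsp are not analysed here.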

Additional observations from a re-analysis of the deposited data

Results flagged for a closer look

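Several genes had opposite signs of the knockout ratio in the Irf8-high Flt3 cells and in a set of neighbours, with both counting intervals away from 0. None of these differences was tested over samples, since each genotype had 1 library. Elane had a log2 ratio of 0.27 in the Irf8-high Flt3 cells, -0.33 in the Irf8-lower and -0.29 in the monocyte-high neighbours, but its sign was not stable: it was -0.33 under 5% mitochondrial UMIs, -0.10 with the Irf8 cut at the 80th percentile and 1.76 after thinning before the rule. Against the Irf8-lower neighbours, Hlf had -1.11 beside 0.16, Sephs2 -0.50 beside 0.10, Srebf1 -0.96 beside 0.18 and Marcks 0.85 beside -0.21. After thinning before the rule the Sephs2 ratio was 0.72, the other direction. Against the monocyte-high neighbours, Hspa1b had 0.85 beside -0.41, Lyz2 -0.70 beside 0.11 and Pnpt1 1.08 beside -0.36. The Lyz2 ratio was 0.33 after thinning. One barcode held 42.9% of the control UMIs of Hlf.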

How the results depend on the processing

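Of 3425 recomputed values 3027 stayed within their spread, 372 moved and 26 reversed. The spread was the counting interval of the main value, and for list medians the medians of the genes' interval bounds. For counts of genes it was 1.5-fold, and for the median of all genes a fixed width. A change of sign was called reversed only where the main interval lay away from 0. Other changes of sign were counted as moved or within the spread. The alternatives were unlike in how many values stayed. Thinning before the rule left only 79 of 191 values within their spread, while 97 moved and 15 reversed. Other size factors, and a UMI total without mitochondrial and ribosomal protein genes, each left all 247 values within their spread. Leaving out cells with a Siglech UMI, and the barcode richest in a gene, were chosen after seeing the data. The log2 ratio of shares stayed between 0.82 and 1.17, and list medians ran from -0.74 to -0.37 for selenoproteins, 0.48 to 0.75 for NRF2 targets and -0.69 to -0.25 for immediate early genes. No paired analysis was possible because each genotype had 1 library. The cause of each change below was not tested. Values are log2 knockout over control unless named, and "over" means over the Irf8-lower neighbours.

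Under 5% mitochondrial UMIs, Elane was -0.33 and the mitochondrially encoded median 0.11. At the 80th percentile for Irf8 the shares were 1.17% and 2.47%, 85 genes were lower, the immediate early median was -0.25, Cenpf was 0.0248 and Elane -0.10, with Mpeg1 over 3.52 (control) and Ccnd1 over 1.33 (knockout). At the 90th percentile the shares were 0.437% and 0.921%, Cenpf was 0.31 and Ube2c 0.63, with Ccnd1 over 1.91 and Mpeg1 over 3.33 (knockout). With percentiles of each library Elane was -0.0373 and Mpeg1 over 3.28 (knockout). With at least 2 Flt3 UMIs Ly6d was -0.11 and Ccnd1 over 0.92 (control) and 1.47 (knockout).

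Thinning before the rule gave shares of 1.07% and 1.90%, 172 genes higher and 95 lower, and a neutrophil median of 0.33. It gave Cd81 -0.13, Cenpf 0.40, Flt3 -0.0384, Ifnar2 -0.25, Irf8 -0.15, Lyz2 0.33, Mpo 0.28, Prtn3 0.33, Sephs2 0.72 and Ube2c 0.0705. Igkc over was 0.0312 (control) and 0.0549 (knockout), Prss34 over 2.10 (control), Mpeg1 over 3.56 (control) and 2.86 (knockout), Ccnd1 over 0.67 (knockout), and Pld4 against all other barcodes -0.50 (knockout). A floor of 50 CPM left 100 genes higher and 46 lower, and no CPM floor 1207 and 734 with a neutrophil median of 0.0167. Means of per-cell shares gave a neutrophil median of 0.0524, Ly6d -0.0287, Mpo 0.0524 and Mpeg1 over 4.29 (control). Without cells that had a Siglech UMI the knockout share was 1.23%, Ccnd1 over 0.86 (control) and Mpeg1 over 3.41 (control) and 2.74 (knockout). Without its richest barcode Ly6d was 2.06.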
